A study of Mus musculus with 149 samples.

Results

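Cytochrome P450 enzymes were followed at the messenger RNA level in mouse lung after challenge with TSLP (thymic stromal lymphopoietin), a cytokine made by epithelial cells. The set comprised every gene whose annotated symbol begins with Cyp, a number, a letter and a digit, except Cyp11a1, Cyp26b1, Cyp2f2 and Cyp2e1. It held 26 of the 13494 genes measured, out of 30 with such a symbol. Where a gene had several probe sets, the brightest on average stood for it. Of the 26 genes, 21 have a family number of 1 digit and 5 a family number of 2 digits. Lungs came from BALB/c mice that were either naive or sensitized to ovalbumin (OVA). Each mouse received saline, buffer (labelled as MSA, an abbreviation the labels do not expand), or 150, 500 or 1500 ng TSLP, and was killed 6 or 24 h later. This gave 20 groups with 1 array per animal: 3 groups had 6 arrays, 5 had 7 and 12 had 8, where the design states 8 animals in each. All OVA groups, their saline and buffer controls included, had been sensitized, so an OVA group challenged with saline carries the sensitization but no TSLP. The labels do not state the route or the schedule of sensitization and challenge. Whole lung was profiled, so fewer cells of a type and less RNA per cell cannot be told apart in any value below.

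P450 enzymes are haem proteins that insert an oxygen atom into their substrate with electrons passed on by a reductase. The CYP1, CYP2 and CYP3 families mainly oxidize drugs, pollutants and arachidonic acid. CYP4 enzymes hydroxylate the end of fatty acids and eicosanoids, and the families with higher numbers mostly act on sterols, bile acids and steroid hormones. In lung these enzymes are best known from club cells and alveolar epithelium, where they can turn inhaled compounds into toxic products. The measured set had 2 CYP1 genes, 13 CYP2 and CYP3 genes, 5 CYP4 genes, 4 sterol and bile acid genes, the steroid 21-hydroxylase Cyp21a1 and Cyp20a1, an orphan enzyme without an established substrate.

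The promoters of 3 of these genes are printed for reference, and no result below rests on them. They are Cyp1a1 and Cyp1b1, classical targets of the aryl hydrocarbon receptor, and Cyp46a1, which had the largest fall after TSLP. Each is the stretch of 250 bases that ends just before the start position of the gene's RefSeq promoter on GRCm38.p6, written 5′ to 3′ along the gene's strand. For Cyp1a1 and Cyp46a1 this position lies inside the annotated span of the gene, which begins at 57687928 and 108334268. Capitals mark GCGTG, the core of the aryl hydrocarbon receptor binding sequence, or CACGC, the same letters read on the opposite strand.
Cyp1a1, chr9:57697363-57697612, plus strand: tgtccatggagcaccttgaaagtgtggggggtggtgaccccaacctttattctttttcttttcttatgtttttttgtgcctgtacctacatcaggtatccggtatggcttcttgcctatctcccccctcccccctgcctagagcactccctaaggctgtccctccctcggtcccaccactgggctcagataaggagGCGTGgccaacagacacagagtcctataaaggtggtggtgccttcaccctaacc
Cyp1b1, chr17:79715062-79715311, minus strand: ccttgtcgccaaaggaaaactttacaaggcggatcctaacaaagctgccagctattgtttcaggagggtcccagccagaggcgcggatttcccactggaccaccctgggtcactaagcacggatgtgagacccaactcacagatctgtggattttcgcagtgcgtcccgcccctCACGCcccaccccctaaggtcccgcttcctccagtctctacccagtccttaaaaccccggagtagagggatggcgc
Cyp46a1, chr12:108334066-108334315, plus strand: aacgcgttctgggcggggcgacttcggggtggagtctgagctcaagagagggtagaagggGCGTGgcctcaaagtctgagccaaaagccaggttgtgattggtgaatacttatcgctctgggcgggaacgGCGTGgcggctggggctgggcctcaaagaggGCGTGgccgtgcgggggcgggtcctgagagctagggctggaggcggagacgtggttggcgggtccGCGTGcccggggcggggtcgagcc
The Cyp1a1 stretch held GCGTG once, starting 54 bases before the start position of the promoter, and TATAAA, the TATA box, 30 bases before it. In Cyp1b1 the core stood once, 76 bases before the start and on the opposite strand. In Cyp46a1 it stood 4 times, at 190, 120, 89 and 24 bases before the start. RefSeq promoters were matched for 20 of the 26 genes. Searched on both strands, GCGTG occurred in 9 of those 20, against 28.2% of all 32851 promoters in the table. TATAAA, searched in the same way, occurred in 5 of the 20, against 12.4% of all promoters, and the 2 motifs share no bases in these stretches. A match is a run of letters and not a measured binding site, and no binding was measured here.

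All expression values below are log2 expression from robust multi-array averaging (RMA), so a difference of 1 is a doubling of the array signal. Levels of different genes are not compared, because probe sets differ in brightness. Differences come from limma, fitted to all 13494 genes and every array at once, with Benjamini-Hochberg adjusted p-values over all genes and a threshold of 0.05. The background printed beside a count is the share of all 13494 genes that passed the same test in the same comparison. Groups share controls: all TSLP doses at a time and sensitization were set against the same buffer arrays, and these buffer arrays also enter the comparison of OVA with naive lungs.

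Over the 20 groups, P450 genes spread more widely than the median gene, with a median range of group means of 0.76 log2 units against 0.54 over all genes. Cyp7b1, the oxysterol 7-alpha-hydroxylase that clears 25-hydroxycholesterol, had the widest range of 1.61, from 9.07 in naive lungs given 150 ng at 24 h to 10.68 in OVA lungs given the same dose at 6 h. Cyp2c23, a CYP2C epoxygenase of arachidonic acid, ranged over 1.43, from 6.41 in OVA lungs given 1500 ng at 24 h to 7.84 in naive lungs given saline at 6 h. Ranges of Cyp46a1 (1.36), Cyp1a1 (1.30), Cyp3a13 (1.30), Cyp4f18 (1.11) and Cyp2j9 (1.06) also passed 1 log2 unit. These were 7 of the 26 genes, against 13.2% of all genes. The lowest group mean of Cyp1a1 (8.78, OVA buffer at 6 h) includes 1 array at 5.83, far below the next at 8.38. Its range without that array was not computed. At the other end stood Cyp2c68 (0.21), Cyp21a1 (0.25), Cyp2d10 (0.26), Cyp2u1 (0.29) and Cyp4v3 (0.33). In the 30 comparisons that leave out 1500 ng TSLP against saline, 20 of the 26 genes passed the test at least once. Cyp2c29, Cyp2c68, Cyp2d10, Cyp2d26, Cyp21a1 and Cyp3a11 passed in none of the 30. Outside them, Cyp21a1 was higher and passed for 1500 ng TSLP against saline in naive lungs at 6 h. The share of all genes that passed at least once was not counted, and a single comparison passed up to 61.2% of them.

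**Figure D1:**
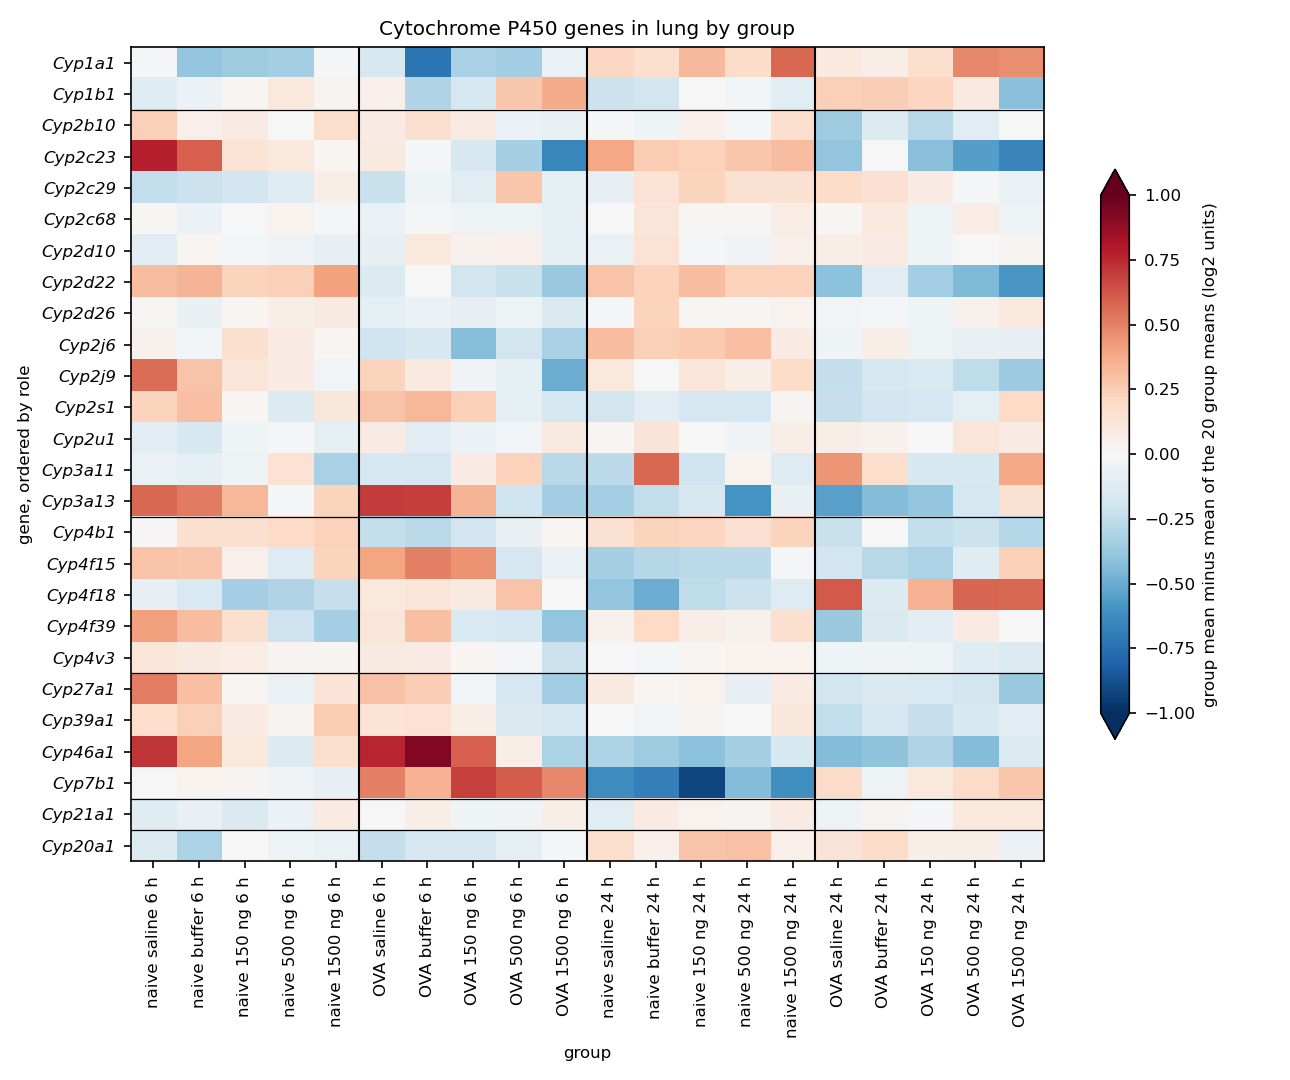
Mean log2 expression of the 26 P450 genes (rows) in each of the 20 groups (columns), as the difference from the mean of the 20 group means; colours run from 1 log2 unit below to 1 above. Cyp7b1 and Cyp4f18 are higher in OVA than in naive lungs, and Cyp46a1, Cyp3a13 and Cyp4f15 are mostly higher at 6 h than at 24 h.

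Lung markers were high in all arrays, with a mean log2 level of 13.57 to 13.78 over 5 alveolar type 2 genes. Signs of RNA quality differed between groups. The difference between the 3′ and 5′ beta-actin control probe sets, larger where RNA is more degraded or less fully copied, had group means of 1.25 to 2.57 log2 units. It was also held as a covariate in an alternative fit. Counts of P450 genes that passed with it, or in any other alternative fit, have a share of all genes beside them only where one is printed. Elsewhere they do not tell P450 genes apart from other genes. Separately, 6 arrays carried keratins of gullet epithelium, Krt13 being at least 10.40 there and at most 6.06 elsewhere. These were replicates 4 and 6 of naive buffer at 6 h, replicate 7 of OVA buffer at 6 h, replicate 5 of naive 150 ng at 6 h, replicate 7 of OVA 1500 ng at 6 h and replicate 8 of naive buffer at 24 h. Another 5 arrays stood out for liver markers and are described with the genes they touch.

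Sensitization alone, read in saline-challenged lungs, went with lower levels of several arachidonic acid and drug-metabolizing P450s and with higher Cyp7b1. At 6 h 6 of the 26 genes passed the test, 5 lower and 1 higher (background 23.5%: 12.6% lower, 10.9% higher), a share like that of all genes. At 24 h 12 did, 9 lower and 3 higher (background 30.3%: 16.4% lower, 14% higher). The median over the P450 genes was -0.06 at 6 h and -0.05 at 24 h, against -0.01 and -0.03 over all genes. The same 5 genes were lower at both times (Cyp2b10, Cyp2c23, Cyp2d22, Cyp2j9 and Cyp4b1), and Cyp7b1 was higher at both. At 6 h none of the 26 genes separated the groups without overlap, and at 24 h 2 did. The share of all genes that did so was not counted, so these counts do not tell P450 genes apart from other genes.

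Among the sterol enzymes, Cyp7b1 at 24 h ran over a lowest, median and highest array of 9.21, 9.35 and 9.56 in naive lungs and 9.98, 10.23 and 10.51 in OVA lungs. Every OVA array lay above every naive array. The difference was 0.82 (SE 0.14), or 1.76-fold, with an adjusted p of 2.56e-06 in limma. At 6 h the naive arrays spread from 9.35 through 9.94 to 10.48 and the OVA arrays from 10.15 through 10.47 to 10.80. The groups overlapped, and the difference was 0.51 (SE 0.14, limma adjusted p 0.00407). Cyp7b1 was higher in OVA than in naive lungs in all 10 pairs of groups matched for challenge and time, by 0.31 to 1.03. Cyp27a1, which hydroxylates the sterol side chain in mitochondria, was 0.28 lower at 24 h (limma adjusted p 0.0334), with 6 of 7 OVA arrays below the naive mean. Cyp39a1, a 7-alpha-hydroxylase of 24-hydroxycholesterol, was 0.24 lower (limma adjusted p 0.00761). Both were lower in OVA in all 10 pairs, by 0.05 to 0.47 and 0.03 to 0.43. Cyp46a1, the enzyme that makes 24-hydroxycholesterol in brain, showed no difference past the test in saline-challenged lungs at either time.

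**Figure D2:**
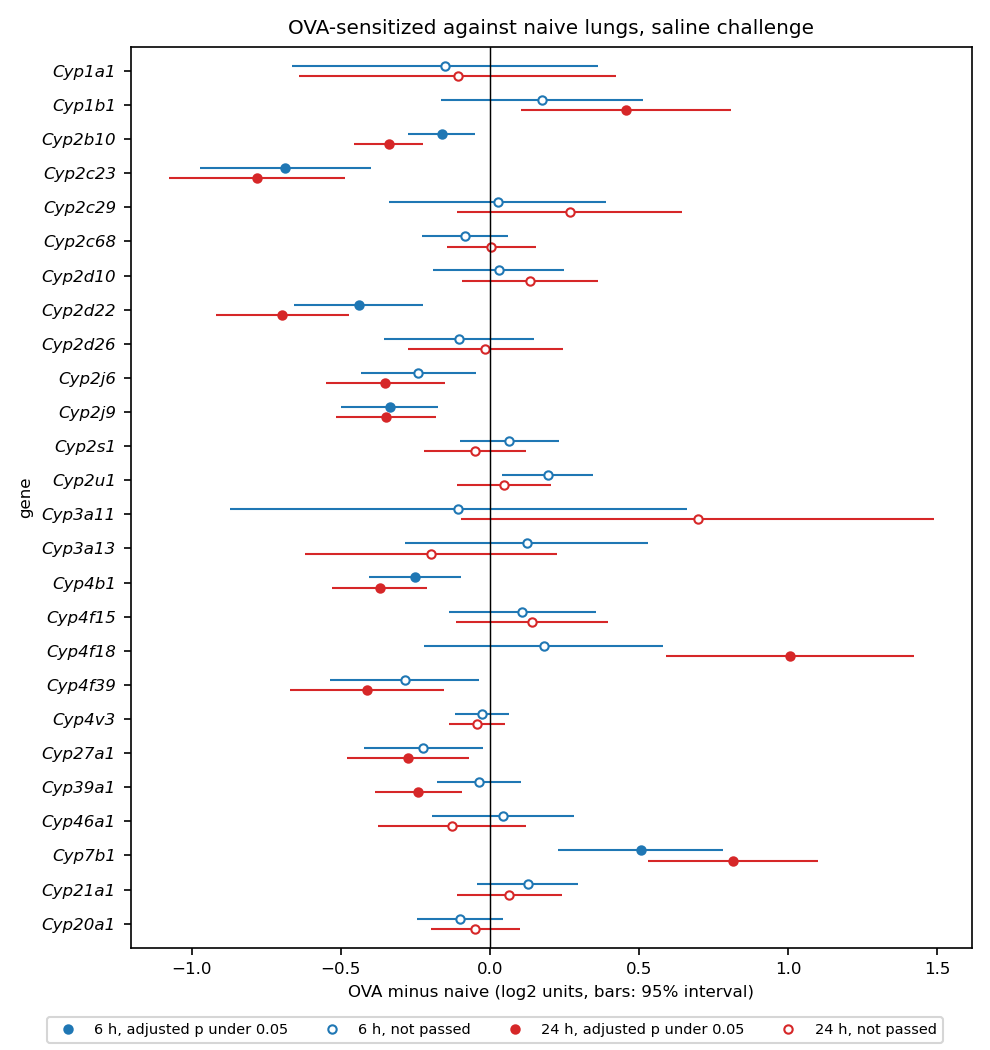
Difference in log2 expression between OVA-sensitized and naive lungs challenged with saline, for the 26 P450 genes at 6 h and 24 h; bars are 95% intervals and filled points have an adjusted p under 0.05. Cyp2c23 and Cyp2d22 lie farthest to the left among filled points, and Cyp7b1 and Cyp4f18 at 24 h farthest to the right.

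Of the CYP4 genes, Cyp4f18, a hydroxylase of leukotriene B4 known from neutrophils, rose at 24 h. Its naive arrays spread from 7.70 through 8.13 to 8.47 and its OVA arrays from 8.42 through 9.25 to 9.75. All 7 OVA arrays exceeded the naive mean and the groups overlapped narrowly. The difference was 1.01 (SE 0.21), or 2.01-fold, with a limma adjusted p of 6.38e-05. At 6 h it was higher by 0.18, which did not pass, and whether the 2 times differ was not tested. Cyp4f18 was higher in OVA lungs in all 10 matched pairs, by 0.18 to 1.01. Cyp4b1, the lung enzyme that activates the toxin 4-ipomeanol, fell by 0.25 at 6 h and by 0.37 at 24 h (limma adjusted p 0.0113 and 0.000132). It was lower in OVA lungs in all 10 pairs, by 0.21 to 0.51. Cyp4f39, an omega-hydroxylase of very long fatty acids in skin, was 0.41 lower at 24 h (limma adjusted p 0.0102), and over the 10 pairs it was lower in 8 and higher in 2 (-0.41 to 0.04).

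The CYP2 genes that changed all fell. Cyp2c23 spread in naive lungs at 6 h from 7.48 through 7.87 to 8.09 and in OVA lungs from 6.67 through 7.16 to 7.56. At 24 h the naive arrays spread from 7.04 through 7.55 to 7.61 and the OVA arrays from 6.18 through 6.56 to 7.23. The groups overlapped at both times, although all 8 OVA arrays at 6 h were below the naive mean. The fall was 1.61-fold at 6 h (-0.69, SE 0.15, limma adjusted p 0.000169) and 1.72-fold at 24 h (-0.78, SE 0.15, limma adjusted p 1.41e-05). Cyp2d22, a member of the drug-metabolizing CYP2D family, spread at 24 h from 11.03 through 11.31 to 11.46 in naive lungs and from 10.13 through 10.62 to 11.05 in OVA lungs. It fell by 0.70 (SE 0.11, limma adjusted p 3.22e-07) at 24 h and by 0.44 (SE 0.11, limma adjusted p 0.00134) at 6 h. The 6 h value includes 1 low naive array at 10.66. Cyp2c23, Cyp2d22, Cyp2j6 and Cyp2j9 were lower in OVA lungs in all 10 matched pairs, by 0.26 to 0.97, 0.34 to 0.81, 0.14 to 0.58 and 0.16 to 0.55. Cyp2j6 and Cyp2j9 belong to the CYP2J epoxygenases, and Cyp2j6 was the other gene with no overlap at 24 h (a fall of 0.35, limma adjusted p 0.00431). Cyp2j9 fell by 0.34 and 0.35 at 6 and 24 h (limma adjusted p 0.0012 and 0.000675). Cyp2b10, which phenobarbital induces in liver, fell by 0.16 and 0.34 (limma adjusted p 0.0285 and 1.72e-06). Over the 10 pairs it went both ways, lower in 8 and higher in 2 (-0.34 to 0.11).

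Of the CYP1 genes, Cyp1b1 was 0.46 (SE 0.18) higher in OVA lungs at 24 h (limma adjusted p 0.0404), with 5 of 7 OVA arrays above the naive mean. Over the 10 pairs it was higher in 7 and lower in 3 (-0.31 to 0.46). With these 2 groups fitted alone its adjusted p was 0.0509, and at 6 h that of Cyp2b10 was 0.082 and that of Cyp4b1 0.0502. Cyp1a1 did not pass at either time.

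Markers of other cells also differed, some lower and some higher. Of 6 alveolar type 1 markers, 5 were lower in OVA lungs at 6 h and 6 at 24 h. Their mean log2 level ran from 12.96 to 13.12 in naive and 12.81 to 13.05 in OVA arrays at 6 h, and from 13.10 to 13.18 and 12.68 to 13.04 at 24 h. Of 7 endothelial markers 4 and 3 were lower, with array means of 11.22 to 11.76 (naive) and 11.15 to 11.55 (OVA) at 6 h and 11.83 to 12.09 and 11.50 to 11.98 at 24 h. Of 7 club cell markers, 2 were higher and 2 lower at 6 h, and 1 higher and 2 lower at 24 h. Of 5 fibroblast and muscle markers, 1 was higher and 1 lower at 6 h, and 3 higher and 0 lower at 24 h. Of 5 alveolar macrophage markers, 2 were higher and 1 lower at both times. Of 5 alveolar type 2 markers, 2 were higher and 1 lower at 6 h, and 2 higher and 2 lower at 24 h. Of 5 ciliated cell markers, 1 was higher and 0 lower at 6 h, and 1 higher and 1 lower at 24 h. Their part in the P450 differences was not tested. The beta-actin difference, OVA minus naive, was 0.03 (exact permutation test, adjusted p 0.919) at 6 h and -0.105 (adjusted p 0.477) at 24 h, neither past the test. Every P450 call in these saline comparisons kept their side of the threshold with it as a covariate.

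In buffer-challenged lungs fewer P450 genes passed the test between OVA and naive animals: 4 at 6 h (background 33.6%) and 2 at 24 h (background 8.57%). Cyp2c23 (-0.62), Cyp4b1 (-0.43) and Cyp2d22 (-0.34) were lower at 6 h, as they were after saline. Cyp46a1 was 0.53 (SE 0.13) higher, with a limma adjusted p of 0.000842. Its naive arrays spread from 7.23 through 8.02 to 8.16 and its OVA arrays from 8.21 through 8.31 to 8.93, without overlap. The lowest naive array, replicate 6, carried gullet keratins and lay below the next at 7.96. In that OVA group the beta-actin difference was also 0.44 higher (exact permutation test, adjusted p 0.0293), and with it as a covariate the Cyp46a1 difference was 0.26 (limma adjusted p 0.056). Of 7 endothelial markers 5 were lower in these OVA lungs (array means of 11.30 to 11.94 in naive and 11.08 to 11.53 in OVA lungs), both fat genes were lower (9.48 to 12.68 and 7.13 to 11.71) and 3 of 7 club cell markers were higher (12.36 to 13.16 and 12.51 to 13.43). Their part was not tested. At 24 h Cyp7b1 was 0.63 (SE 0.14) higher (limma adjusted p 0.00185), from 9.07, 9.16 and 9.71 in naive to 9.69, 9.86 and 10.29 in OVA arrays, which overlapped narrowly. Cyp2d22 was 0.34 lower (limma adjusted p 0.0419, and 0.0516 with the 2 groups fitted alone). After quantile normalization 4 genes passed at 24 h, 1 higher and 3 lower, in place of 1 and 1.

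**Figure D3:**
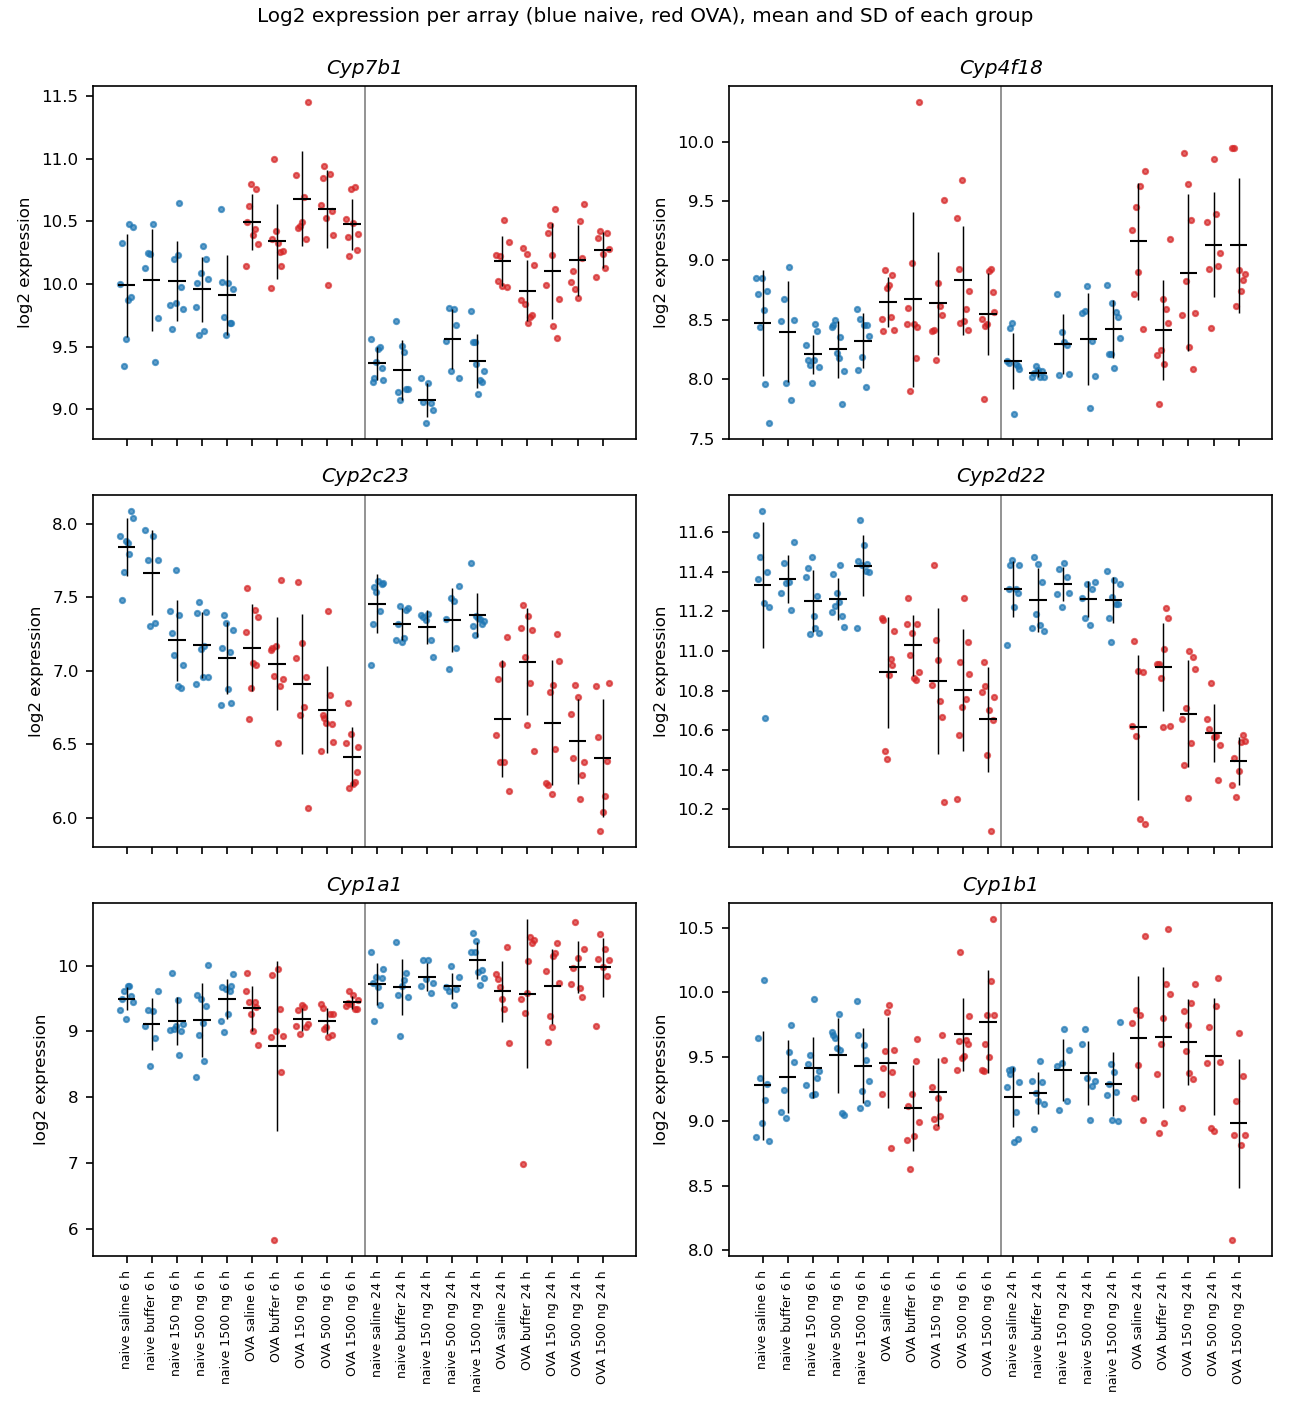
Log2 expression of Cyp7b1, Cyp4f18, Cyp2c23, Cyp2d22, Cyp1a1 and Cyp1b1 in every array (dots) of the 20 groups, with the group mean and SD; naive groups are blue and OVA groups red. The red Cyp7b1 and Cyp4f18 means lie above the matched blue ones, those of Cyp2c23 and Cyp2d22 below, and 1 OVA buffer array at 6 h has Cyp1a1 at 5.83.

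At 24 h after 1500 ng TSLP, OVA lungs differed from their buffer controls in 10 of the 26 genes, 5 higher and 5 lower (background 38.5%: 21% higher, 17.5% lower), a share like that of all genes. The median over the P450 genes was 0.05, against 0.01 over all genes. Cyp1b1, which oxidizes polycyclic aromatic hydrocarbons and estrogens, spread from 8.91 through 9.70 to 10.49 after buffer and from 8.08 through 8.90 to 9.68 after TSLP. The groups overlapped, with 6 of 7 TSLP arrays below the buffer mean. Cyp1b1 fell by 0.67 (SE 0.18), or 1.59-fold, with a limma adjusted p of 0.00162. Cyp2c23 spread from 6.45 through 7.18 to 7.45 after buffer and from 5.91 through 6.39 to 6.91 after TSLP, with all 7 TSLP arrays below the buffer mean. It fell by 0.65 (SE 0.15, limma adjusted p 0.000248). Cyp2d22 was the gene without overlap, from 10.62, 10.93 and 11.21 to 10.26, 10.46 and 10.57. It fell by 0.48 (SE 0.11, limma adjusted p 0.000391). Cyp4b1 fell by 0.28 (limma adjusted p 0.00338) and Cyp20a1 by 0.25 (limma adjusted p 0.00603).

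The 5 higher genes included 2 CYP4F genes. Cyp4f18 spread from 7.79 through 8.36 to 9.18 after buffer and from 8.62 through 8.88 to 9.95 after TSLP. The ranges overlapped between 8.62 and 9.18. It rose by 0.72 (SE 0.21), or 1.64-fold, with a limma adjusted p of 0.00404. Cyp4f15, another CYP4F hydroxylase, rose by 0.52 (SE 0.13, limma adjusted p 0.000717), from 7.19, 7.38 and 7.59 to 7.55, 7.95 and 8.22. Cyp2s1, a P450 of airway epithelium and other tissues outside the liver, rose by 0.39 (SE 0.09, limma adjusted p 0.000166), from 11.38, 11.49 and 11.66 to 11.61, 11.93 and 12.13. Cyp3a13, of the drug-metabolizing CYP3A family, rose by 0.59 (SE 0.21, limma adjusted p 0.0207), from 6.11, 6.30 and 6.61 to 6.52, 6.90 and 7.39. In these 3 genes the ranges touched or overlapped only at their edges. Cyp2b10 rose by 0.14 (limma adjusted p 0.0461), and Cyp7b1 was 0.32 higher without passing (limma adjusted p 0.0636).

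**Figure D4:**
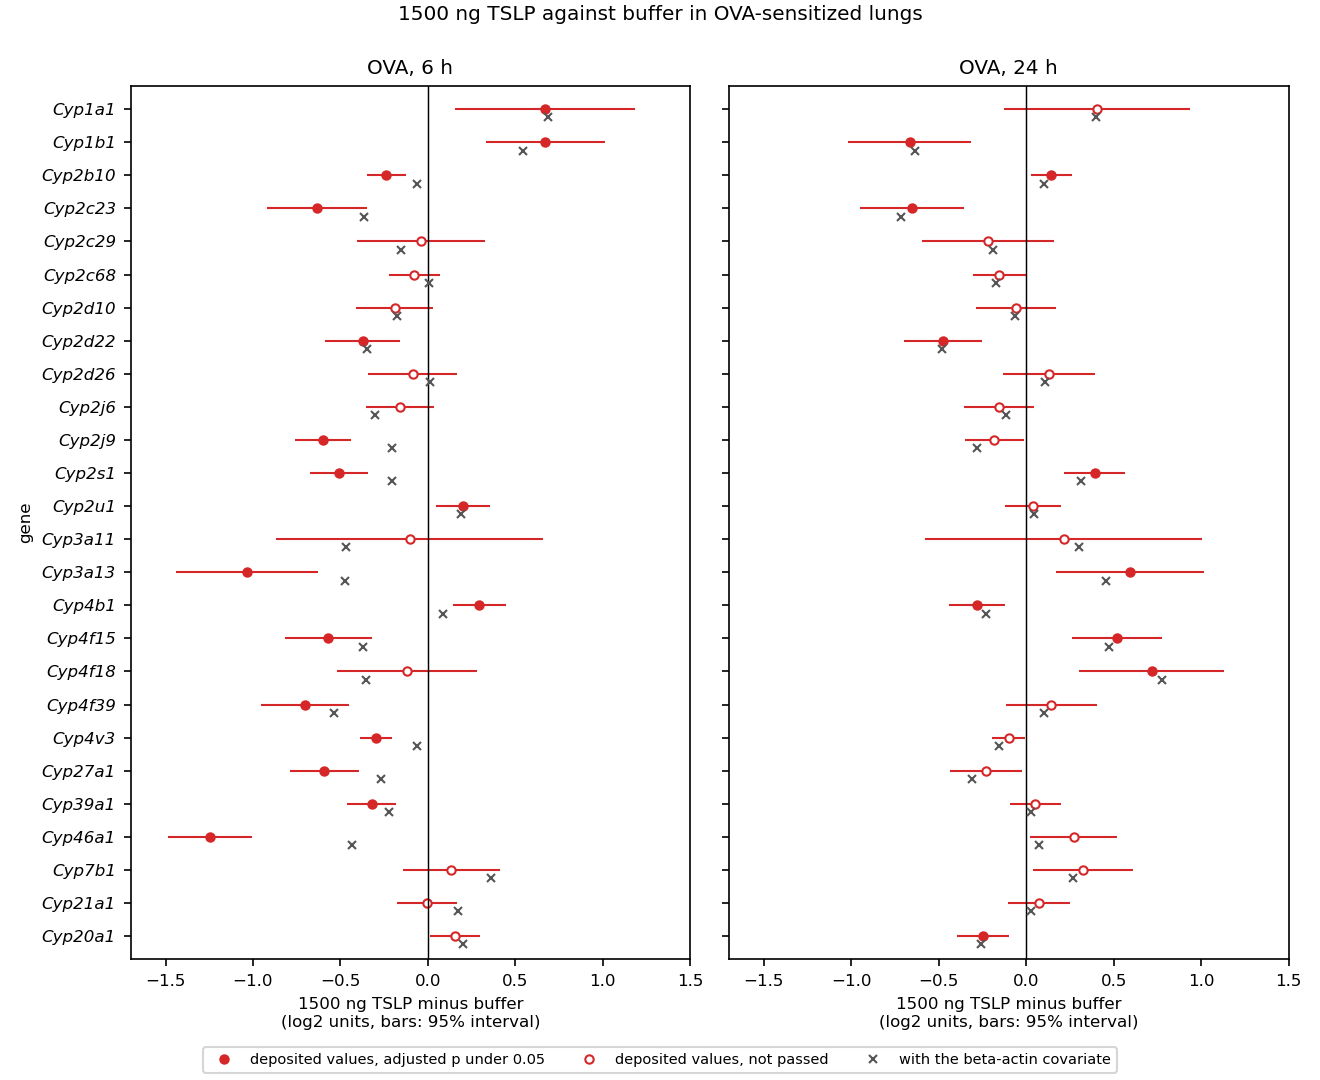
Difference in log2 expression between 1500 ng TSLP and buffer in OVA-sensitized lungs for the 26 P450 genes, at 6 h and at 24 h in separate panels; bars are 95% intervals, filled points have an adjusted p under 0.05, and crosses give the difference with the beta-actin covariate. At 6 h the crosses of Cyp46a1, Cyp3a13 and Cyp2j9 lie nearer to 0 than the points.

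The beta-actin difference was 0.32 higher after TSLP at 24 h (exact permutation test, adjusted p 0.00137). With it as a covariate 11 genes passed. Cyp2b10 (0.10, limma adjusted p 0.18) and Cyp3a13 (0.45, limma adjusted p 0.0874) no longer did, and Cyp27a1 (-0.31), Cyp2j9 (-0.28) and Cyp4v3 (-0.16) were added. Of 7 endothelial markers 5 were lower and 1 higher (array means of 11.58 to 11.99 after buffer and 11.42 to 11.79 after TSLP), and of 6 alveolar type 1 markers 4 were lower (12.97 to 13.11 and 12.79 to 12.96). Of 5 alveolar macrophage markers 3 were lower (9.56 to 10.23 and 8.995 to 9.73), and both measured fat genes were lower (8.20 to 12.76 and 5.58 to 10.23). Of 7 club cell markers 2 were lower and none higher (12.54 to 13.39 and 12.18 to 13.25). Of 9 clock output genes 5 were higher and 2 lower (9.71 to 10.46 and 10.19 to 10.42), and against saline 6 and 2. The part of these cells and of the time of day in the P450 differences was not tested.

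Set against saline in place of buffer, which leaves the TSLP arrays the same, 6 genes passed at 24 h, 5 higher and 1 lower (background 29.2%: 15.8% higher, 13.3% lower). Cyp2s1 (0.43), Cyp4f15 (0.43, limma adjusted p 0.00941), Cyp3a13 (0.69, limma adjusted p 0.0109) and Cyp1b1 (-0.66, SE 0.18, limma adjusted p 0.00335) kept their direction and passed. Cyp2b10 was 0.36 higher (limma adjusted p 2e-06) and Cyp4f39 0.37 higher (limma adjusted p 0.0274). The differences of Cyp2c23 (-0.27, limma adjusted p 0.189), Cyp2d22 (-0.17, limma adjusted p 0.274), Cyp4b1 (-0.06, limma adjusted p 0.616) and Cyp20a1 (-0.19, limma adjusted p 0.0583) did not pass. That of Cyp4f18 turned to -0.03 (limma adjusted p 0.934), since OVA saline lungs at 24 h had a mean of 9.16 and OVA buffer lungs one of 8.41. Buffer itself changed 1 P450 gene against saline in OVA lungs at 24 h, Cyp2b10, which was 0.22 higher (limma adjusted p 0.0433, background 0.882%).

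At 6 h 1500 ng TSLP went with many more differences in OVA lungs, 16 of the 26 genes, 4 higher and 12 lower (background 60.7%: 24.8% higher, 35.9% lower), again a share like that of all genes. The median over the P450 genes was -0.17, against -0.06 over all genes. RNA quality moved with this comparison more than with any other comparison of TSLP and buffer. The beta-actin difference was 2.57 ± 0.26 (SD, n = 8) after buffer and 1.26 ± 0.12 (SD, n = 8) after TSLP (exact permutation test, adjusted p 0.00137), and Cyp46a1 and Cyp4f39 were the 2 genes that passed with it as a covariate. Of 7 endothelial markers 6 were higher (array means of 11.08 to 11.53 after buffer and 11.71 to 11.94 after TSLP). Of 5 fibroblast and muscle markers 4 were higher (11.48 to 12.24 and 12.29 to 12.43), and 3 of 6 alveolar type 1 markers were higher (12.82 to 13.00 and 12.88 to 13.05). Of 7 club cell markers 1 was higher and 3 lower (12.51 to 13.43 and 12.97 to 13.37). Of 5 alveolar type 2 markers 1 was higher and 2 lower (13.64 to 13.74 and 13.58 to 13.67). Of 9 clock output genes 2 were higher and 2 lower. The part of these cells and of the time of day in the P450 differences was not tested.

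Cyp46a1 had the largest fall. Its arrays spread from 8.21 through 8.31 to 8.93 after buffer and from 7.07 through 7.17 to 7.40 after TSLP, without overlap. It fell by 1.25 (SE 0.12), or 2.37-fold, with a limma adjusted p of 4.78e-16. With the covariate the difference was -0.43 (limma adjusted p 0.0217). Cyp2j9, from 9.30, 9.47 and 9.59 to 8.57, 8.83 and 9.13, also separated the groups and fell by 0.60 (SE 0.08, limma adjusted p 3.34e-10), as did Cyp4v3, a fatty acid omega-hydroxylase, by 0.30 (limma adjusted p 1.78e-08). Averaged over its probe sets, Cyp4v3 differed by -0.08 (limma adjusted p 0.135). Cyp3a13 fell by 1.03 (SE 0.21, limma adjusted p 6.54e-06), from 6.75, 7.34 and 9.02 to 5.92, 6.24 and 7.69. The highest array of each group was replicate 7, which carried gullet keratins, and without such arrays the difference was -0.99. Cyp4f39 fell by 0.70 (SE 0.13, limma adjusted p 7.8e-07), and by 0.54 with the covariate (limma adjusted p 0.0349). Cyp27a1 (-0.59), Cyp4f15 (-0.57), Cyp2s1 (-0.51), Cyp2d22 (-0.37), Cyp39a1 (-0.32) and Cyp2b10 (-0.24) were lower, and so was Cyp2c23 (-0.63, limma adjusted p 7.74e-05).

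Both CYP1 genes were higher at 6 h. Cyp1b1 rose by 0.67 (SE 0.17, limma adjusted p 0.000397), from 8.63, 9.06 and 9.64 to 9.39, 9.71 and 10.57, with all 8 TSLP arrays above the buffer mean. With the covariate it was 0.55 higher (limma adjusted p 0.125). Cyp1a1, which oxidizes polycyclic aromatic hydrocarbons, was 0.67 higher (SE 0.26, limma adjusted p 0.0198), from 5.83, 8.97 and 9.94 after buffer to 9.34, 9.42 and 9.62 after TSLP. The lowest buffer array, replicate 3, lay far below the next one at 8.38, and without it the difference was 0.25 (limma adjusted p 0.355). Cyp4b1 rose by 0.29 (limma adjusted p 0.000599), and by 0.18 without that same buffer array (limma adjusted p 0.0208). Cyp2u1, a hydroxylase of long fatty acids, rose by 0.20 (limma adjusted p 0.0185). Ahr, a receptor known to drive both CYP1 genes, was 0.27 higher at 6 h (limma adjusted p 0.000313) and 0.07 higher at 24 h (limma adjusted p 0.424). Its part in the CYP1 values was not tested.

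Against saline at 6 h, 13 genes passed in OVA lungs, 2 higher and 11 lower (background 62.1%: 25% higher, 37% lower). Mean beta-actin differences were 2.45 after saline and 1.26 after TSLP. With it as a covariate Cyp27a1 (-0.34), Cyp2c23 (-0.50), Cyp2j9 (-0.37), Cyp46a1 (-0.35) and Cyp20a1 (0.27) passed, against 19.1% of all genes. The test of the difference between the 1500 ng effects at 24 h and 6 h passed for 14 genes in OVA lungs, 11 higher at 24 h and 3 lower (background 60.2%: 34.7% higher, 25.5% lower). It was 1.63 (SE 0.30) for Cyp3a13, 1.52 (SE 0.17) for Cyp46a1, 1.09 (SE 0.18) for Cyp4f15, 0.90 (SE 0.12) for Cyp2s1 and -1.34 (SE 0.25) for Cyp1b1. Cyp1b1, Cyp2b10, Cyp2s1, Cyp3a13, Cyp4b1 and Cyp4f15 passed in opposite directions at the 2 times, while Cyp2c23 and Cyp2d22 were lower at both. The arrays behind the 6 h and 24 h effects are different animals, with beta-actin differences of opposite sign. With the covariate 7 genes passed, and the differences of Cyp27a1 (-0.0445), Cyp2j9 (-0.0724) and Cyp4v3 (-0.0948) turned direction, as that of Cyp4v3 did with the mean of its probe sets (-0.16).

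Without TSLP, many P450 genes also differed between times, while Cyp1b1 and Cyp4b1 did not pass the test. In saline-challenged naive lungs 14 P450 genes passed, 12 lower at 24 h than at 6 h and 2 higher (background 61.2%: 36.1% lower, 25.1% higher). In OVA lungs 14 passed, again 12 lower and 2 higher (background 61%: 35.7% lower, 25.3% higher). After quantile normalization that split was 12 and 4. Of these, 11 were lower in both and Cyp20a1 was higher in both. The 11 include Cyp4v3, whose difference turned direction with the mean of its probe sets (0.0864 in naive and 0.0776 in OVA lungs) and with the beta-actin covariate (0.0672 and 0.0755). Cyp46a1 spread in naive lungs from 7.50 through 8.32 to 8.83 at 6 h and from 7.01 through 7.17 to 7.54 at 24 h. In OVA lungs it spread from 7.85 through 8.36 to 8.65 and from 6.79 through 7.08 to 7.48, without overlap. It was lower by 1.02 in naive (limma adjusted p 2.42e-12) and by 1.20 in OVA lungs. Cyp3a13 was lower by 0.92 and 1.24, and Cyp4f15 by 0.62 and 0.59. Cyp7b1 was 0.62 lower at 24 h in naive lungs, and Cyp4f18 was 0.51 higher in OVA lungs. The beta-actin difference was also 1.04 and 1.18 lower at 24 h (exact permutation test, adjusted p 0.00137 in both), and with it as a covariate 4 genes passed in naive lungs and 5 in OVA lungs. Cyp46a1 (-0.38 and -0.47) and Cyp20a1 (0.35 and 0.41) did so in both. At 24 h 6 of 7 endothelial markers were higher in both (array means of 11.22 to 11.76 at 6 h and 11.83 to 12.09 at 24 h in naive lungs, and 11.15 to 11.55 and 11.50 to 11.98 in OVA lungs). Of 5 fibroblast and muscle markers 3 were higher in naive lungs (11.85 to 12.26 and 12.19 to 12.42) and 5 in OVA lungs (11.82 to 12.30 and 12.35 to 12.65). Of 9 clock output genes 2 were higher and 5 lower at 24 h in both. The part of these cells and of the time of day was not tested.

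**Figure D5:**
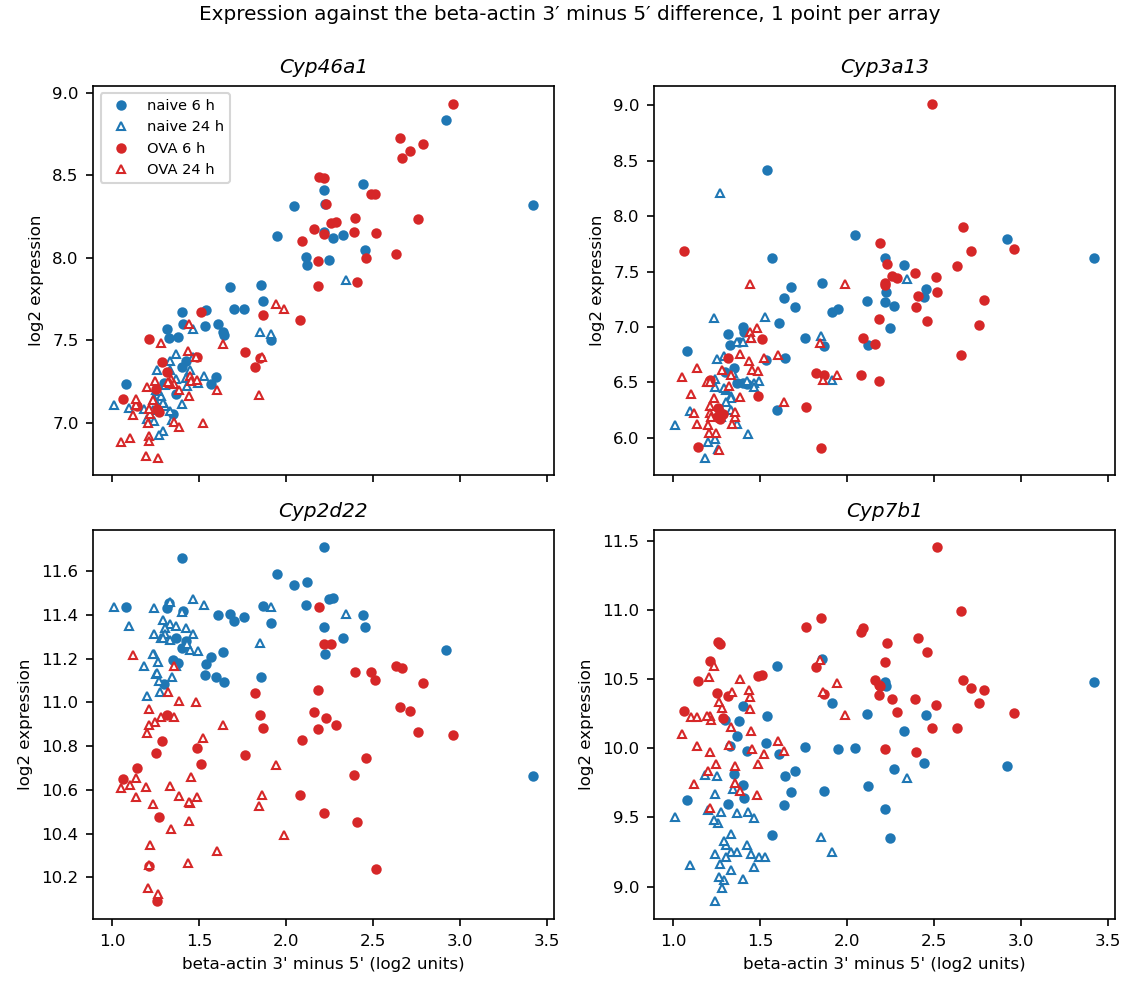
Log2 expression of Cyp46a1, Cyp3a13, Cyp2d22 and Cyp7b1 (vertical axes) against the 3′ minus 5′ beta-actin difference (horizontal axes, log2 units), with 1 point per array. The OVA buffer arrays at 6 h lie to the right, with a mean of 2.57, and the OVA 1500 ng arrays at 6 h to the left, with a mean of 1.26.

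In naive lungs 1500 ng TSLP went with 4 P450 differences at 6 h (background 15.3%). Cyp4f39 separated the groups, from 8.39, 8.82 and 8.97 after buffer to 7.86, 8.09 and 8.36 after TSLP, and fell by 0.64 (SE 0.14), or 1.56-fold (limma adjusted p 0.000713). Cyp2c23 fell by 0.58 (limma adjusted p 0.00672), from 7.30, 7.75 and 7.96 to 6.76, 7.14 and 7.38, and Cyp2j9 by 0.31 (limma adjusted p 0.0104). Cyp20a1 rose by 0.25 (limma adjusted p 0.0217). The beta-actin difference was 0.53 lower after TSLP (exact permutation test, adjusted p 0.0251), and with it as a covariate Cyp2c23 (limma adjusted p 0.0671) and Cyp2j9 (limma adjusted p 0.269) did not pass. Against saline 7 genes passed, 2 higher and 5 lower (background 42.8%: 17.9% higher, 24.8% lower). Cyp21a1 was among the higher, and Cyp4f39 (-0.75), Cyp2c23 (-0.76) and Cyp2j9 (-0.58) were among the lower. Mean beta-actin differences were 2.42 after saline and 1.61 after TSLP. With the covariate these 3 lower genes still passed (-0.64, -0.59 and -0.34), as did Cyp21a1 (0.31), against 5.66% of all genes. With the naive buffer and 1500 ng groups at 6 h fitted alone, 1 gene passed. At 24 h none of the 26 genes passed in naive lungs by limma (background 0.978%), with 3 at an unadjusted p under 0.05, of which Cyp2b10 (0.21) came nearest (adjusted p 0.0525). There the beta-actin difference was 0.32 higher after TSLP (exact permutation test, adjusted p 0.038), and 0 of the 26 genes passed by limma with it as a covariate. In the same comparison with buffer, 4 of 9 clock output genes were higher and 2 lower, and the part of the time of day was not tested. Against saline none passed at 24 h either (background 0.793%, 5 at an unadjusted p under 0.05).

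Whether the effect of 1500 ng depended on sensitization was itself tested, as the OVA effect minus the naive effect. At 24 h it passed for Cyp2c23 alone (background 4.42%), at -0.71 (SE 0.21, limma adjusted p 0.0341). For Cyp1b1 it was -0.74 (95% interval -1.23 to -0.24, limma adjusted p 0.068), for Cyp2d22 -0.48 (-0.79 to -0.16, limma adjusted p 0.0627) and for Cyp4f18 0.35 (-0.24 to 0.93, limma adjusted p 0.521). At 6 h it passed for 8 genes, 8 lower and 0 higher in OVA lungs (background 31.8%: 17.8% lower, 14% higher), with Cyp46a1 at -1.01 (SE 0.18), and 2 passed with the covariate and 3 without the arrays with gullet keratins. Between 24 h and 6 h in naive lungs it passed for Cyp2c23 (0.64), Cyp4f39 (0.61) and Cyp2j9 (0.50) (background 17.1%), for none with the covariate. After quantile normalization 1 higher and 1 lower gene passed there.

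Lower doses were set against the same buffer arrays. In OVA lungs at 24 h, 2 genes passed at 150 ng (background 10.5%), Cyp2c23 (-0.41, limma adjusted p 0.0485) and Cyp4b1 (-0.25, limma adjusted p 0.0296). At 500 ng 3 passed (background 11.8%): Cyp2c23 (-0.54, limma adjusted p 0.0108), Cyp2d22 (-0.33, limma adjusted p 0.0389) and Cyp4f18 (0.72, limma adjusted p 0.0153). With the compared groups fitted alone none passed at either dose. Cyp2c23 was thus lower at all 3 doses at 24 h, by 0.41, 0.54 and 0.65. Among the arrays given TSLP, the slope per 10-fold of dose passed for 4 genes at 24 h (background 15%). Cyp1b1 fell by 0.63 (SE 0.18, limma adjusted p 0.00938), and Cyp4f15 (0.55), Cyp2s1 (0.36) and Cyp2b10 (0.29) rose.

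In OVA lungs at 6 h, none passed at 150 ng by limma (background 0.163%, 5 at an unadjusted p under 0.05) and 11 passed at 500 ng, 2 higher and 9 lower (background 41%: 19% higher, 22% lower). The largest falls at 500 ng were Cyp3a13 (-0.89), Cyp46a1 (-0.86) and Cyp4f15 (-0.67), and Cyp1b1 (0.57) and Cyp4b1 (0.20) were higher. At 500 ng 5 of 7 endothelial markers were higher (array means of 11.08 to 11.53 after buffer and 11.56 to 11.86 after TSLP), 2 of 5 fibroblast and muscle markers were higher (11.48 to 12.24 and 12.07 to 12.41), and of 7 club cell markers 1 was higher and 3 lower (12.51 to 13.43 and 12.51 to 13.40). Their part was not tested. At these doses the beta-actin difference was 0.29 and 0.78 lower than after buffer, and 2 genes passed at 500 ng with the covariate. The slope passed for 12 genes, 2 higher and 10 lower (background 50.4%: 20.9% higher, 29.5% lower), and for none with the covariate. Without replicate 3 of OVA buffer at 6 h, Cyp4b1 at 500 ng was 0.09 higher (limma adjusted p 0.331).

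In naive lungs at 6 h, 4 genes passed at 150 ng (background 27.2%) and 9 at 500 ng, 1 higher and 8 lower (background 42.1%: 15.8% higher, 26.2% lower). Cyp2c23, Cyp27a1 and Cyp2s1 were lower and Cyp20a1 higher at both doses. Cyp2c23 differed by -0.46 and -0.49 and Cyp20a1 by 0.32 and 0.27. Of 7 endothelial markers 3 and 5 were higher (array means of 11.30 to 11.94 after buffer, 11.65 to 12.02 and 11.88 to 12.10 after TSLP), and of 6 alveolar type 1 markers 3 at each dose (12.84 to 13.10, 13.06 to 13.17 and 13.00 to 13.15). Their part was not tested. Here the beta-actin difference was 0.49 and 0.70 lower than after buffer. With it as a covariate 1 and 3 genes passed, and without the arrays with gullet keratins 7 and 10. No share of all genes is printed beside these counts, so they do not tell P450 genes apart from other genes. The slope passed for none by limma (background 0.17%, 3 at an unadjusted p under 0.05). In naive lungs at 24 h none passed by limma at 150 ng (background 0.215%) or 500 ng (background 0%), with 1 at an unadjusted p under 0.05 at each dose, and none for the slope (background 0.452%, 3 unadjusted). Buffer against saline changed Cyp2j9 (-0.27, limma adjusted p 0.0257) and Cyp2b10 (-0.19, limma adjusted p 0.0229) in naive lungs at 6 h (background 14.9%), and neither with the covariate. By limma no P450 gene passed for buffer against saline in naive lungs at 24 h (background 0.00741%, 2 unadjusted) or OVA lungs at 6 h (background 0.356%, 3 unadjusted).

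Genes that serve or regulate P450s were counted in the same comparisons. For OVA against naive saline lungs the background, either direction, was 23.5% at 6 h and 30.3% at 24 h. Of 7 measured genes for electron transfer partners and haem, 1 was higher and 3 lower in OVA than in naive saline lungs at both times. Those lower were the P450-binding protein Pgrmc1, the cytochrome b5 reductase Cyb5r3 and the cytochrome b5 gene Cyb5a. The mitochondrial electron carrier Fdx1 was higher (0.19 and 0.22). Among OVA lungs, Alas1, the first enzyme of haem synthesis, was 0.48 lower at 6 h and 0.36 higher at 24 h after 1500 ng TSLP. The beta-actin difference moved by -1.31 and 0.32 there, and the Alas1 values are without it as a covariate. Of 9 receptors that regulate P450 genes, 1 was higher and 3 lower after sensitization at 6 h, and 1 higher and 2 lower at 24 h. Vdr, the vitamin D receptor, was 0.40 and 0.83 higher (limma adjusted p 5.25e-07 at 24 h), and Ppara, a fatty acid receptor, 0.34 and 0.35 lower. After 1500 ng TSLP in OVA lungs at 24 h, Vdr was 0.68 higher against buffer (limma adjusted p 3.75e-05) and 0.18 against saline (limma adjusted p 0.37). Of 8 detoxification genes, 4 were lower and none higher after sensitization at 24 h, with Gsta3, a glutathione transferase, at -0.61 and the flavin monooxygenase Fmo2 at -0.50. Nqo1, a quinone reductase, was 0.44 lower there and 0.54 lower after 1500 ng TSLP in OVA lungs at 24 h.

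The 6 genes without a call in the 30 comparisons were mostly those known from liver. Cyp3a11, the main CYP3A enzyme of mouse liver, had a median of 3.71 and a highest value of 6.49 over 144 arrays, and the other 5 arrays stood out for liver markers. In those 5 arrays the mean log2 level of 6 liver markers was 8.15 or more, against 7.92 or less elsewhere (median 6.86). The highest was replicate 5 of naive buffer at 24 h, with a liver marker mean of 10.28 and Cyp3a11 at 9.07. Replicate 8 of OVA saline at 24 h followed, with a liver marker mean of 9.08 and Cyp3a11 at 8.12. In the first of these arrays Cyp2c29, a hepatic CYP2C enzyme, was at 6.99 against a highest value of 6.11 over the 144 arrays, Cyp2d10 at 7.07 against 6.09, Cyp2d26 at 7.61 against 6.87 and Cyp2c68 at 6.73 against 6.36. In the other 4 of the 5 arrays these genes did not all stand out: Cyp2d26 was within the range of the 144 arrays in all 4 (6.09 to 6.63). Cyp2c68 lay above that range in 1 of the 4, Cyp2d10 in 2 and Cyp2c29 in 2, with Cyp2c29 at 5.49 in replicate 6 of naive 500 ng and 5.96 in replicate 1 of OVA 500 ng at 6 h. In that last array Cyp3a11 was at 5.77, also within range. The part of liver RNA in these values was not tested. Cyp21a1, the steroid 21-hydroxylase of the adrenal, had group means within 0.25 log2 units of each other. It passed only outside the 30 comparisons, for 1500 ng TSLP against saline in naive lungs at 6 h.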

How the data were processed

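Total RNA from the lungs was extracted with the mirVana kit, passed a minimum integrity number and was amplified with an Affymetrix 3′ IVT kit, per the labels. The authors deposited log2 values made with RMA, per the submitters' processing notes. The RMA version, any filter on probe sets and the scan batches were not given in the sources used here. There were 26166 probe sets. Probe sets were named through the platform annotation: 22892 named 1 gene, 260 several and 3014 none, and those with several or none were not used. One probe set per gene, the one with the highest mean, gave 13494 genes. For 5 of the 26 P450 genes another probe set was also present, and its correlation with the one used over arrays ran from 0.28 for Cyp4v3 and 0.38 for Cyp20a1 to 0.98 for Cyp2b10.

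A model of 20 group means was fitted with limma 3.58.1 in R 4.3.3 (129 residual degrees of freedom), with Benjamini-Hochberg adjustment over all genes in each comparison. It was checked on simulated data. The beta-actin difference was compared by 2-sided exact permutation tests (scipy 1.17.1), adjusted over 22 comparisons. The number of arrays limits the precision. The labels name 1 animal per array but no batch. Replicate numbers are animal numbers. The P450 genes, marker lists and pathway lists were chosen with earlier results of these data known. Genes were named by rule: up to 6 rises and 6 falls for 1500 ng against buffer, up to 4 of each elsewhere, the 10 widest ranges, the CYP1 genes and up to 2 genes per role, which took in 20 genes. Others were named after their values were seen. Other settings tried were averaging all probe sets, no dim genes (lowest 40%), quantile normalization, animal number as a block, the beta-actin covariate, no gullet keratin arrays, the compared groups alone, saline as reference, and 2 leave-outs of 1 array added after seeing the data.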

Additional observations from a re-analysis of the deposited data

Results flagged for a closer look

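In 134 sets of 6 to 8 arrays, each 1 P450 gene in 1 group, a single array far from the others was found 8 times, where chance gives about 1 in 20. Low arrays were Cyp1a1 in OVA buffer at 6 h (replicate 3, 5.83, next 8.38), Cyp4b1 in the same array (11.80, next 12.60), Cyp2d22 in naive saline at 6 h (replicate 6, 10.66, next 11.22), Cyp2b10 in OVA 1500 ng at 6 h (replicate 6, 12.60, next 12.81) and Cyp46a1 in naive buffer at 6 h (replicate 6, 7.23, next 7.96). High arrays were Cyp3a13 in OVA buffer at 6 h (replicate 7, 9.02, next 7.70) and in OVA 1500 ng at 6 h (replicate 7, 7.69, next 6.72), and Cyp4f39 in that last array (8.77, next 8.20). Of the 8, 4 lay in arrays with gullet keratins, and naive saline replicate 6 had the highest beta-actin difference of all arrays, 3.42.

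The effect of 1500 ng TSLP against buffer differed between OVA and naive lungs at 6 h for 8 genes by limma (background 31.8%). The test was of that difference itself, and 3 genes passed it without the gullet keratin arrays and 2 with the beta-actin covariate. OVA minus naive was -0.42 for Cyp27a1, -0.37 for Cyp2b10, -0.44 for Cyp2d22, -0.32 for Cyp2s1, -0.33 for Cyp39a1, -1.01 for Cyp46a1, -0.51 for Cyp4f15 and -0.23 for Cyp4v3. At 24 h it was -0.71 for Cyp2c23 (background 4.42%).

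Between times, the effect in naive lungs at 24 h minus that at 6 h was 0.64 for Cyp2c23, 0.50 for Cyp2j9 and 0.61 for Cyp4f39 (background 17.1%). In OVA lungs 14 genes differed (background 60.2%). Lower at 24 h were Cyp1b1 (-1.34), Cyp20a1 (-0.40) and Cyp4b1 (-0.57). Higher at 24 h were Cyp27a1 (0.36), Cyp2b10 (0.38), Cyp2j9 (0.42), Cyp2s1 (0.90), Cyp39a1 (0.37), Cyp3a13 (1.63), Cyp46a1 (1.52), Cyp4f15 (1.09), Cyp4f18 (0.84), Cyp4f39 (0.84) and Cyp4v3 (0.19). With the beta-actin covariate those of Cyp27a1, Cyp2j9 and Cyp4v3 turned direction (-0.0445, -0.0724 and -0.0948). The beta-actin difference moved with the 6 h effects, by -1.31 in OVA and -0.53 in naive lungs, and its part in these values was tested only by the covariate fit.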

How the results depend on the processing

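Of 156 calls of a P450 gene in a comparison, 155 kept direction and side with animal number as a replicate block (1 lost), 146 with the mean of all probe sets (7 lost, 3 reversed), 143 after quantile normalization (13 lost), 147 without the gullet keratin arrays (9 lost), 126 with the compared groups alone (30 lost) and 70 with the beta-actin covariate (80 lost, 6 reversed). Without the dimmest genes 97 of 97 calls that could be tested held. Averaging probe sets could change the difference of only the 5 of the 26 genes with another probe set. Leaving out dim genes keeps the difference of every remaining gene, so calls that held in these settings say little. Against saline 20 of 30 held, 9 were lost and 1 reversed. In the 2 leave-outs added after seeing the data, 21 of 22 (without naive saline replicate 6 at 6 h) and 50 of 53 (without OVA buffer replicate 3 at 6 h) held. Animal numbers did not pair the arrays: residuals of same-numbered arrays correlated at 0.0027 on average, others at 0.0034. Quantile normalization moved the share of higher genes among all genes called by over 10 percentage points in 9 comparisons, such as from 36% to 54.4% for 1500 ng in naive lungs at 6 h. Where the array signal is low, as for Cyp3a11, Cyp2c68 and Cyp2u1, small changes could be missed. The cause of each change below was not tested, except that fewer genes can pass without the dim ones (12 of 26 remain).

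Counts of P450 genes called moved by over 1.5 times as follows, from the reported to the alternative value. The shares of all genes are not printed beside them, so these moves do not tell P450 genes apart from other genes. Without the dimmest 40%: 1500 ng naive 6 h 4 to 2, 500 ng naive 6 h 9 to 5, 1500 ng naive 24 h 0 to 1, 1500 ng OVA 6 h 16 to 10, 500 ng OVA 6 h 11 to 7, 1500 ng OVA 24 h 10 to 6, 150 ng OVA 24 h 2 to 1, 500 ng OVA 24 h 3 to 1, OVA minus naive buffer 6 h 4 to 2, the OVA minus naive effect at 24 h 1 to 2, 24 h minus 6 h saline 14 to 8 (naive) and 14 to 9 (OVA), and the effect between times in OVA 14 to 9. Covariate: 150 ng naive 6 h 4 to 1, 500 ng naive 6 h 9 to 3, dose slope naive 6 h 0 to 1, buffer minus saline naive 6 h 2 to 0, 1500 ng OVA 6 h 16 to 2, 500 ng OVA 6 h 11 to 2, slope OVA 6 h 12 to 0, buffer minus saline OVA 24 h 1 to 2, the OVA minus naive effect 8 to 2 (6 h) and 1 to 2 (24 h), 24 h minus 6 h saline 14 to 4 (naive) and 14 to 5 (OVA), and the effect between times 3 to 0 (naive) and 14 to 7 (OVA). Compared groups alone: 1500 ng naive 6 h 4 to 1, 150 ng naive 6 h 4 to 2, buffer minus saline naive 6 h 2 to 0 and OVA 24 h 1 to 0, 150 ng OVA 24 h 2 to 0, 500 ng OVA 24 h 3 to 0, OVA minus naive buffer 24 h 2 to 1, the OVA minus naive effect at 24 h 1 to 3. Quantile normalization: 500 ng naive 6 h 9 to 5, 1500 ng naive 24 h 0 to 1, buffer minus saline OVA 24 h 1 to 0, OVA minus naive buffer 24 h 2 to 4, the OVA minus naive effect at 24 h 1 to 2. Mean of probe sets: buffer minus saline naive 6 h 2 to 1, slope naive 24 h 0 to 1, 150 ng OVA 24 h 2 to 1, the OVA minus naive effect at 24 h 1 to 2. Without gullet arrays: 150 ng naive 6 h 4 to 7, buffer minus saline naive 6 h 2 to 0, the OVA minus naive effect at 6 h 8 to 3, the effect between times in naive 3 to 5. Replicate block: 150 ng OVA 24 h 2 to 1, buffer minus saline OVA 24 h 1 to 2. Saline as reference: 1500 ng naive 6 h 4 to 7 and OVA 24 h 10 to 6. Without OVA buffer replicate 3 at 6 h counts ran from 0 to 16, and without naive saline replicate 6 at 6 h from 2 to 14, each within 1.5 times the reported one.

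Reversed values were Cyp2j9 at 500 ng in OVA at 6 h (0.0334 with the covariate), Cyp4f18 at 1500 ng in OVA at 24 h (-0.0323 against saline), Cyp4v3 at 24 h minus 6 h in naive (0.0864 with the mean of probe sets, 0.0672 with the covariate) and OVA saline lungs (0.0776 and 0.0755), and, for the effect between times in OVA, Cyp27a1 (-0.0445) and Cyp2j9 (-0.0724) with the covariate and Cyp4v3 (-0.16 with the mean of probe sets, -0.0948 with the covariate).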
